A study of Homo sapiens with 12 samples.

Results

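Libraries of Z18truncZnFmut, a truncated ZC3H18 in which aromatic residues of the zinc finger are mutated, were compared with libraries of Z18trunc, the same truncated protein with its zinc finger intact. The question the comparison addresses is what the zinc finger adds to the RNA recovered with the truncated protein. The libraries were chosen by their titles, and 6 of the 12 libraries of the series entered the comparison, 3 for each construct. The other libraries carried Clover, a green fluorescent protein used as the control, or Z18fl, full-length ZC3H18, and are given as background. All constructs had a V5 tag and were introduced by transient transfection into A375, an established human melanoma line. From 24 h after transfection the cells were fed 4-thiouridine (4sU), a uridine analogue that crosslinks to bound protein under light, and were irradiated at 316 nm. RNA was recovered with an antibody against V5, depleted of ribosomal RNA and sequenced with its strand kept, an assay known as PAR-CLIP. The proteins were overexpressed in 1 cell line that still had its own ZC3H18. Nothing states that replicates were separate cultures, so p-values measure only the spread between these samples, which may be technical. Fewer bound molecules and less of an RNA in the cells cannot be told apart in these libraries.

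A CCCH zinc finger is a small fold around a zinc ion that binds RNA, in part by stacking aromatic side chains against bases. ZC3H18 links the cap-binding complex of nuclear RNA to exosome adaptors that lead RNA to degradation. Much of the nuclear RNA such proteins meet contains copies of transposable elements: LINE-1 (L1) and Alu elements, which spread by retrotransposition and often lie in introns, and long terminal repeat (LTR) elements, which include endogenous retroviruses. The repeat annotation also holds copies of small structured RNAs. Among these, 7SK holds back the elongation factor P-TEFb, 7SL is the RNA of the signal recognition particle, U1, U2 and U4 belong to the spliceosome, and U17 and U3 are small nucleolar RNAs needed to process ribosomal RNA.

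The sequences below belong to 3 of the small RNAs whose counts, summed over all copies, were higher in every library of Z18truncZnFmut. They are shown so that the kind of RNA recovered can be seen. They are hg38 sequence read 5′ to 3′ on the strand of the element, and capitals mark each T, a uridine in the RNA and thus a base that 4sU can replace. The most counted copies of the small RNAs lie in annotated exons. For 7SK the stretch is chr6:52995620-52995919 on the plus strand (the first 300 of 332 bases). For U17 it is chr1:28507365-28507571 on the plus strand, inside the span of RCC1, though the exon need not be one of RCC1. For U1 it is chr14:34556226-34556389 on the minus strand, within RNU1-28P. That copy held 27.2% of the U1 counts and did not by itself separate the groups. Uridine made up 21.0% of the 7SK stretch, 20.8% of U17 and 26.2% of U1.
7SK: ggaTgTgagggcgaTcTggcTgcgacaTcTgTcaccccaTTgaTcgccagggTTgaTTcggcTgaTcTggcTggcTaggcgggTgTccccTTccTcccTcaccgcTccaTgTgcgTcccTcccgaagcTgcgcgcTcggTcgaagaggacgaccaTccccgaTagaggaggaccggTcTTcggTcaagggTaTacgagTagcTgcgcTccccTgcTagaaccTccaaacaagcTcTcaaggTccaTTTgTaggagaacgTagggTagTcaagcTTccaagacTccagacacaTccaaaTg
U17: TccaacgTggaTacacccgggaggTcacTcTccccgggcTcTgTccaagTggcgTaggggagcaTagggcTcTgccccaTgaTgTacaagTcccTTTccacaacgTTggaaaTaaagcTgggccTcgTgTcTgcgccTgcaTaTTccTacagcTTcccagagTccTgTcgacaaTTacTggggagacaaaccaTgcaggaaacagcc
U1: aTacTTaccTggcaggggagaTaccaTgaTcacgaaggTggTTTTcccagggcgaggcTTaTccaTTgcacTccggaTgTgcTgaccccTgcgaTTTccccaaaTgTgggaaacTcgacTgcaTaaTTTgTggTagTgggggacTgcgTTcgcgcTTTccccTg

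Aligned fragments ranged from 23670466 to 24200920 in Z18trunc and from 21285347 to 24217444 in Z18truncZnFmut. Z18truncZnFmut replicate 3 stood apart from the other 5 libraries. It had counts at 1411138 transposable elements, against 464444 to 695379 in the others, and 39.6% of its counts lay at elements with 2 or fewer counts, against 16.7% to 26.1%. Element counts on both strands were 16.3% of its aligned fragments and 55.4% of them lay on the strand of the element, against 8.37% to 9.59% and 60.7% to 64.0%. Comparisons are therefore given with and without that library. CPM below means counts on the strand of the element per 1000000 aligned fragments. For single values, 3 libraries against 3 cannot give a two-sided exact permutation p under 0.1, and 2 against 3 cannot give one under 0.2.

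Among the small RNA names with at least 200 mean counts, 7SK, U17, U1 and LSU-rRNA_Hsa, copies of the large ribosomal RNA, were higher in every library of Z18truncZnFmut than in every library of Z18trunc. 7SK stood at 7047, 6975 and 7872 CPM in Z18trunc and at 9075, 12928 and 11338 CPM in Z18truncZnFmut, means of 7298 ± 498 and 11114 ± 1936 (SD, n = 3). All 3 mutant libraries lay above all 3 Z18trunc libraries. U17 stood at 341, 323 and 365 CPM in Z18trunc and at 535, 636 and 593 CPM in Z18truncZnFmut. U1, which pairs with the start of introns, stood at 259.7, 313 and 275 CPM in Z18trunc and at 513, 665 and 729 CPM in Z18truncZnFmut. LSU-rRNA_Hsa stood at 93.2, 82.7 and 143 CPM in Z18trunc and at 145, 162 and 1460 CPM in Z18truncZnFmut. For these 3, too, the groups did not overlap, although for LSU-rRNA_Hsa the nearest libraries were 143 and 145 CPM. The other names of that coverage overlapped and are given below. How many of all names tested separated in this way was not counted. Mutant replicate 3 lay above every Z18trunc library in all 31 lists of transposable elements and all 6 of small RNAs. Replicates 1 and 2 both did so in 2 of those 31 lists and in 2 of those 6. Upward separation was therefore easier to reach. The Clover levels differed among these RNAs. 7SK had 5324, 5134 and 4292 CPM in Clover, below both groups, whereas U17 had 474, 539 and 544 CPM and U1 had 539, 677 and 462 CPM, overlapping the range of the mutant. LSU-rRNA_Hsa had 291, 96.4 and 74.9 CPM in Clover, overlapping both groups. In Z18fl it had 45.0, 879 and 97.6 CPM, so its level varied widely among libraries of the same construct.

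**Figure D1:**
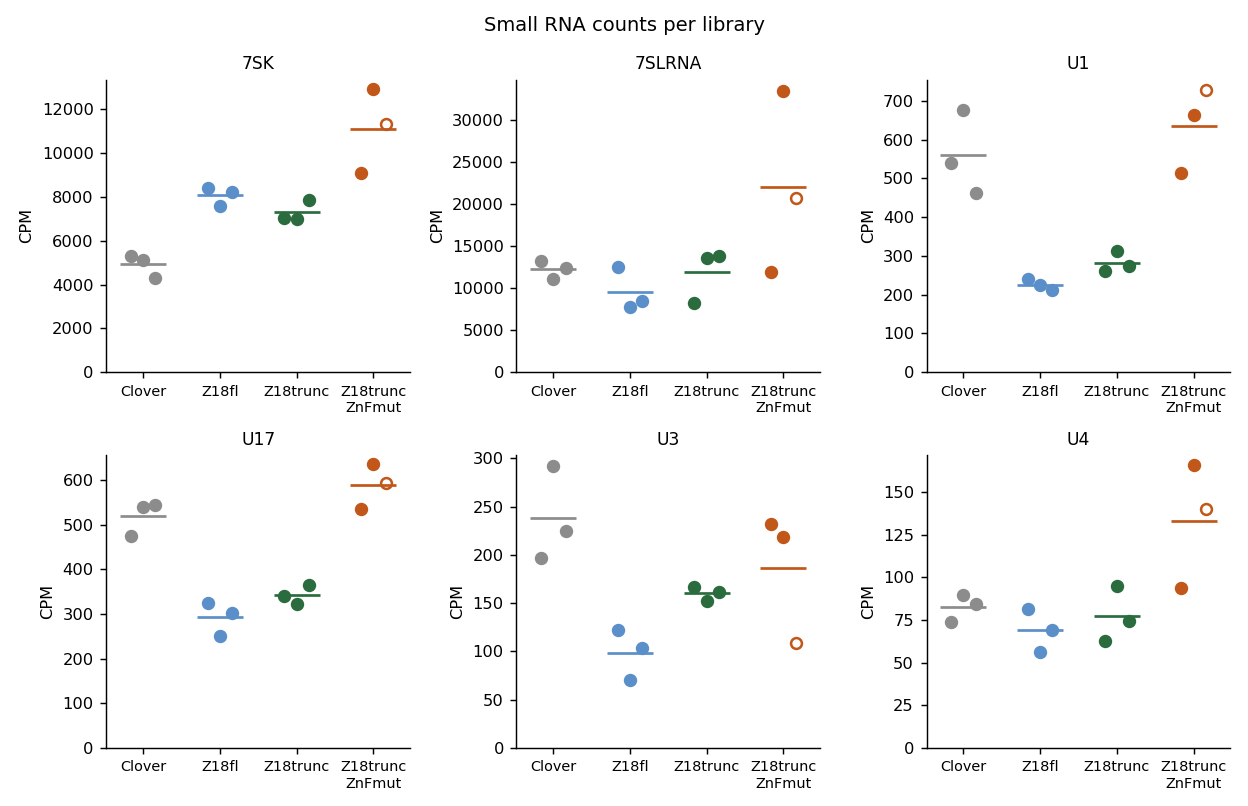
Each panel plots 1 small RNA, with the construct on the horizontal axis and the level in CPM on the vertical axis. Points are single libraries, the open circle is Z18truncZnFmut replicate 3 and the line is the mean of 3 libraries. In 7SK, U1 and U17 all Z18truncZnFmut points lie above all Z18trunc points, and in U3 the open circle lies at 109 CPM, below Z18trunc.

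For the test, counts were summed by name and compared by edgeR's quasi-likelihood method, with Benjamini-Hochberg adjustment over all names tested. Without replicate 3 of the mutant, 6 of 987 names (0.608%) were called at an adjusted p under 0.05, and all 6 were higher in Z18truncZnFmut. They were U1 (log2 fold change 1.24 ± 0.14 SE, edgeR adjusted p = 0.0009), U17 (0.95 ± 0.11, edgeR adjusted p = 0.0009), U3 (0.67 ± 0.11, edgeR adjusted p = 0.022), LTR7, the promoter of the endogenous retrovirus HERVH (0.65 ± 0.12, edgeR adjusted p = 0.032), 7SK (0.78 ± 0.15, edgeR adjusted p = 0.044) and LSU-rRNA_Hsa (0.73 ± 0.14, edgeR adjusted p = 0.044). Of the 27 small RNA names tested, 5 passed and 22 lay above 0, with a median of 0.45 on the log2 scale against 0.015 over all names. With all 6 libraries 0 of 983 names (0%) were called by edgeR and 0 by DESeq2. At an unadjusted p under 0.05, 16 names (1.63%) were then higher and 37 (3.76%) lower. U1 and U17 kept their calls with each further library left out, whereas U3, LTR7, 7SK and LSU-rRNA_Hsa were no longer called without Z18trunc replicate 2, without mutant replicate 2 or with reads on either strand. The log2 fold changes with all 6 were 0.94 ± 0.29 for U1, 0.60 ± 0.32 for U17 and 0.43 ± 0.39 for 7SK.

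A block for the replicate number, which treats libraries of the same number as pairs, raised these counts without replicate 3 only. No label states such a pairing. The blocked fit called 0 of 983 names with all 6 libraries, the smallest edgeR adjusted p being 0.081. Without replicate 3 of the mutant this fit rests on the pairs 1 and 2, since Z18trunc replicate 3 then stands alone in its block. With so few pairs its standard errors, here and below, rest on a spread shared across features. Its calls therefore do not measure the spread between the pairs of each feature. The fit called 29 names higher (2.94%) and 65 lower (6.59%) of 987. It placed 10 of the 27 small RNA names higher and 2 lower, and those it added as higher were 7SL, U2, U4, BC200 and SSU-rRNA_Hsa. The lower ones were U14, a small nucleolar RNA with 73, 58 and 54 counts in Z18trunc and 25, 19 and 42 counts in Z18truncZnFmut, and tRNA-Asn-AAC.

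Reads that fit several copies equally well carried much of the small RNA signal. Uniquely mapping reads made up 68.6% of the 7SK counts and 30.1% of those of U17. Their share was only 3.20% for U1, 5.47% for U3 and 3.51% for LSU-rRNA_Hsa. With uniquely mapping reads alone and without mutant replicate 3, the log2 fold change was 0.81 for 7SK and 0.93 for U17, both still called. It turned to -0.30 for U1 and -0.46 for U3, so the direction of those 2 rests on reads shared among near-identical copies and is uncertain. The U1 copy printed above, for example, had 1.80, 82.6 and 92.8 CPM in Z18trunc and 269, 0.123 and 282 CPM in Z18truncZnFmut. The summed snRNA class, which in this annotation holds U17 and U3 as well, had 1097, 1205 and 1290.4 CPM in Z18trunc and 1693, 2154 and 1945 CPM in Z18truncZnFmut, without overlap (two-sided exact permutation p = 0.1, 0.575 after Benjamini-Hochberg adjustment over 46 tests). The difference of the means was 733 CPM with all reads and 63.6 CPM with uniquely mapping reads alone. Uniquely mapping reads are only a part of these counts, so the sizes of those differences cannot be compared.

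The other small RNA names of that coverage overlapped between the groups. 7SL had 8221, 13633 and 13831 CPM in Z18trunc and 11953, 33559 and 20706 CPM in Z18truncZnFmut, and the groups overlapped through replicate 1 (edgeR adjusted p = 0.15 without mutant replicate 3). U3 had 167, 152 and 162 CPM in Z18trunc and 232, 219 and 109 CPM in Z18truncZnFmut, so replicate 3 lay on the other side of Z18trunc from the other mutant libraries. U4 had 62.9, 95.0 and 74.2 CPM in Z18trunc against 93.5, 166 and 139.9 CPM. U2 overlapped as well, at 253, 309 and 400.4 CPM against 309, 456 and 356 CPM. SSU-rRNA_Hsa, copies of the small ribosomal RNA, had 36.9, 36.6 and 67.7 CPM in Z18trunc and 63.1, 71.6 and 653 CPM in Z18truncZnFmut. BC200, a brain RNA of Alu origin, had 9.82, 11.9 and 12 CPM in Z18trunc and 10.2, 17 and 22.5 CPM in Z18truncZnFmut.

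L1 elements were lower in replicates 1 and 2 of the mutant than in Z18trunc and higher in replicate 3. The L1 family had 17786, 18316 and 17165 CPM in Z18trunc and 14650, 13232 and 28826 CPM in Z18truncZnFmut. Replicates 1 and 2 lay below every Z18trunc library and replicate 3 above them, and all 6 lay above Clover, at 8315, 7077 and 7329 CPM. For the whole LINE class the difference without replicate 3 was -4039.6 CPM (two-sided exact permutation p = 0.2, 0.575 adjusted), and with it 2244 CPM (two-sided exact permutation p = 1.0). Alu elements lay within the range of Z18trunc in mutant replicates 1 and 2 and above it in replicate 3, with 21820.3, 21283 and 27065 CPM against 21078, 21318 and 22010.2 CPM in Z18trunc. The log2 ratio of L1 to Alu counts was accordingly -0.57 and -0.69 in mutant replicates 1 and 2 and 0.091 in replicate 3, against -0.25, -0.22 and -0.36 in Z18trunc and -1.13 to -1.30 in Clover.

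The lower L1 level was seen across most ages of the family. L1PA7 to L1PA17, primate L1 subfamilies, had 3085, 3154 and 2741 CPM in Z18trunc and 2319, 2032 and 4274 CPM in Z18truncZnFmut. L1MA1 to L1MA4, which are older, had 824, 850.1 and 807 CPM against 616, 528 and 1501 CPM. L1HS to L1PA6, the youngest, overlapped, with 6057, 6158 and 5069 CPM against 5277, 4469.8 and 7135 CPM. In 8 of 9 L1 lists mutant replicates 1 and 2 lay below every Z18trunc library, and in all 9 replicate 3 lay above them. Among all 31 lists of transposable elements the counts were 16 below, 2 above and, for replicate 3, 31 above.

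**Figure D2:**
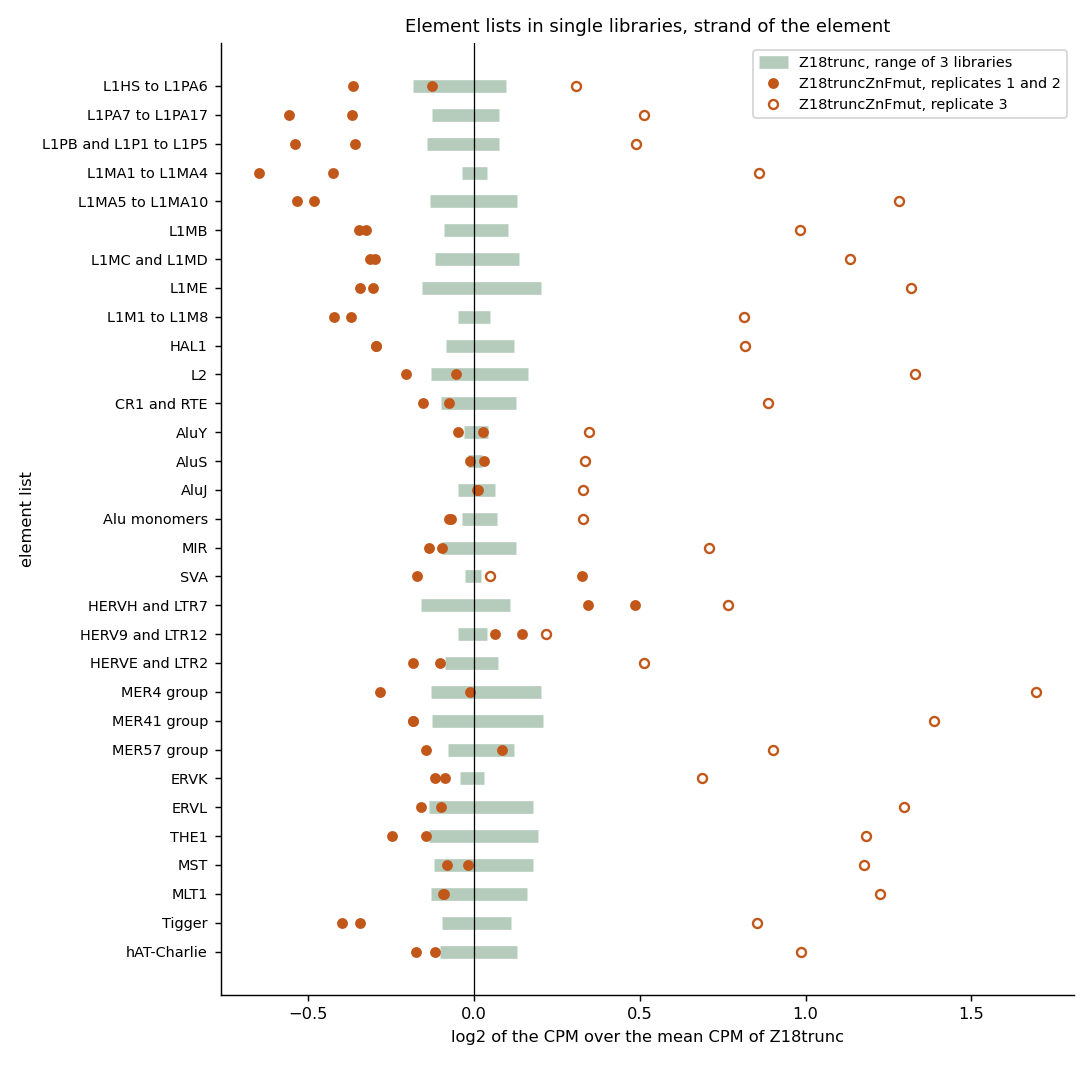
For each of 31 element lists the plot shows the log2 of the CPM of single Z18truncZnFmut libraries over the mean CPM of Z18trunc, with replicates 1 and 2 filled and replicate 3 open. The bars span the 3 Z18trunc libraries. The filled points lie left of the bar in 8 of 9 L1 lists and right of it in HERVH and LTR7 and in HERV9 and LTR12, and the open points lie right of the bar in all 31 lists.

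In the test of single subfamilies no L1 name was called. Without mutant replicate 3, 115 of 130 L1 subfamilies lay below 0, with a median of -0.21 on the log2 scale. An unadjusted p under 0.05 was reached by 34 of these 130 as lower and by 0 as higher, whereas 6.48% of all names passed that threshold as higher and 5.17% as lower. The names with the smallest p among the lower ones, without replicate 3, were Tigger3 and Tigger2, ancient DNA transposons, and L1MA9, L1M4c and L1MA6 of the older L1. Their log2 fold changes were -0.60, -0.41, -0.39, -0.48 and -0.40, with edgeR adjusted p = 0.074 for Tigger3 and 0.12 for the others. Tigger3, for example, had 15.6, 16.9 and 17.9 CPM in Z18trunc and 10.5, 8.93 and 24.7 CPM in Z18truncZnFmut, so replicate 3 again lay on the other side. The replicate block called all 5 lower. With that block and without replicate 3, 56 L1 subfamilies were called lower, against 6.59% of all names, among them all 11 of L1PA7 to L1PA17, 14 of 19 of L1PB and L1P1 to L1P5 and 2 of 6 of L1HS to L1PA6. The block called 0 of the 130 with all 6 libraries. With all 6 libraries 108 of 130 lay below 0 at the same median, 0 were called and 20 reached an unadjusted p under 0.05. That direction depended on the scaling. With library sizes taken from aligned fragments in place of TMM, the median over all subfamilies moved from 0.032 to 0.48 with all 6 libraries and from 0.015 to -0.17 without replicate 3, and the L1 median became 0.22 and -0.39. Relative to those medians L1 was lower in both scalings.

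By family, 0 of 46 (0%) were called with all 6 libraries by edgeR, and DESeq2 called 1 lower, TcMar-Tigger. With all 6 libraries rRNA alone reached an unadjusted p under 0.05 by edgeR, as higher. Without replicate 3 edgeR called 3 (6.52%). These were the snRNA family, higher by 0.81 ± 0.091 on the log2 scale (edgeR adjusted p = 0.0045), the RNA family, which is 7SK, higher by 0.71 ± 0.14 (edgeR adjusted p = 0.041), and TcMar-Tigger, ancient DNA transposons, which fell by 0.25 ± 0.051 (edgeR adjusted p = 0.041). TcMar-Tigger had 991, 1042 and 1143 CPM in Z18trunc and 803, 835 and 1915 CPM in Z18truncZnFmut. With aligned fragments as library sizes none of these 3 was called, with log2 fold changes of 0.68, 0.59 and -0.37 and edgeR adjusted p = 0.099, 0.12 and 0.099. The blocked fit called 0 families with all 6 libraries, the smallest edgeR adjusted p being 0.46. Without replicate 3 it called 4 families higher (8.70%), adding rRNA and srpRNA, and 1 lower (2.17%). For srpRNA that fit gave 0.99 ± 0.092, although the pairs went from 8221 to 11953 and from 13633 to 33559 CPM. Its standard error thus does not measure the spread between the pairs. The lower family in that fit was L1 (-0.30, edgeR adjusted p = 0.015), and TcMar-Tigger no longer passed (edgeR adjusted p = 0.065).

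HERVH elements, a primate endogenous retrovirus family known for transcription in pluripotent cells, were higher in Z18truncZnFmut in every library. HERVH and LTR7 together had 1125, 1181 and 981 CPM in Z18trunc and 1389.7, 1535 and 1862 CPM in Z18truncZnFmut. The groups did not overlap, and Clover, at 1323, 1251 and 1498 CPM, lay above every Z18trunc library and overlapped the mutant. LTR7 alone had 54.7, 55.2 and 51.5 CPM in Z18trunc, 71.4, 77.3 and 105 CPM in Z18truncZnFmut, 70.1, 56.2 and 74.9 CPM in Clover and 39.3, 43.6 and 43.4 CPM in Z18fl. Among the 17 names of this list 1, LTR7, was called higher without replicate 3 and 16 lay above 0, with a median of 0.34 on the log2 scale against 0.015 over all names. All 17 lay above 0 with all 6 libraries and 0 were called, with a median of 0.18 against 0.032 over all names. Single HERVH and LTR7 loci had a median log2 fold change of 0.51 with all 6 libraries, over 151 loci of which 90.7% lay above 0, against 0.019 and 51.3% over all loci. It was 0.43 without replicate 3, over 177 loci of which 77.4% lay above 0, against 50.6% of all loci. HERV9 and LTR12, another primate retrovirus and its promoter, differed less, with log2 CPM of 0.14, 0.062 and 0.22 above the Z18trunc mean in Z18truncZnFmut and of -0.049 to 0.039 in Z18trunc. The ERV1 family, which holds both, had 3773, 3851 and 3752 CPM in Z18trunc and 4128, 4171 and 6528 CPM in Z18truncZnFmut, without overlap (edgeR adjusted p = 0.19 without replicate 3). SVA elements, hominoid composite retrotransposons, showed no such pattern in CPM, at 834, 807 and 825 in Z18trunc against 1031, 730.1 and 849.5.

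Loci drawn from libraries outside the comparison were then summed by class. In Z18fl against Clover, which uses none of the 6 libraries compared, 3498 loci were called higher (28.3%) and 2890 lower (23.4%) of 12370. All 3498 together overlapped between the groups, at 14884, 15027 and 14614 CPM in Z18trunc and 14562, 17877 and 16668 CPM in Z18truncZnFmut (two-sided exact permutation p = 0.40, and 0.80 without replicate 3), a sum in which the small RNA loci were the largest class in all 6 libraries. The classes differed. The 1937 LINE loci among those higher in Z18fl summed to 6013, 6152 and 4851 CPM in Z18trunc and to 4121, 3478 and 4104 CPM in Z18truncZnFmut. Every mutant library, replicate 3 included, lay below every Z18trunc library, and every one lay above Clover, at 1271, 1106 and 1200.2 CPM. The Clover libraries helped to choose the list, so only mutant against Z18trunc is independent of it. The difference was -1771 CPM (two-sided exact permutation p = 0.1, 0.375 after Benjamini-Hochberg adjustment over 30 tests) and -1872 CPM without replicate 3 (two-sided exact permutation p = 0.2).

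The same order held for the SINE and LTR loci of that list. The 868 SINE loci summed to 1011, 1016 and 1059 CPM in Z18trunc, 808, 745 and 683 CPM in Z18truncZnFmut and 376 to 419 CPM in Clover. The 437 LTR loci summed to 744, 737 and 746 CPM, 599, 572 and 569.7 CPM, and 270.5 to 302 CPM. In all 3 classes the mutant stood below Z18trunc and above Clover. The place of Clover is not an independent result, since both lists were chosen on the same Clover libraries. The 13 small RNA loci of the list went the other way, with 6734, 6744 and 7581 CPM in Z18trunc and 8737, 12827 and 11041 CPM in Z18truncZnFmut. Among loci lower in Z18fl than in Clover, the 497 LTR loci summed to 2186, 2203 and 1891 CPM in Z18trunc, 2665, 2581 and 2534 CPM in Z18truncZnFmut and 2650.4 to 2913 CPM in Clover. The 1749 SINE loci of that list overlapped between the groups, at 4432, 4283 and 3981 CPM against 5251, 4275 and 4037 CPM, as did the 434 LINE loci once replicate 3 was included.

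**Figure D3:**
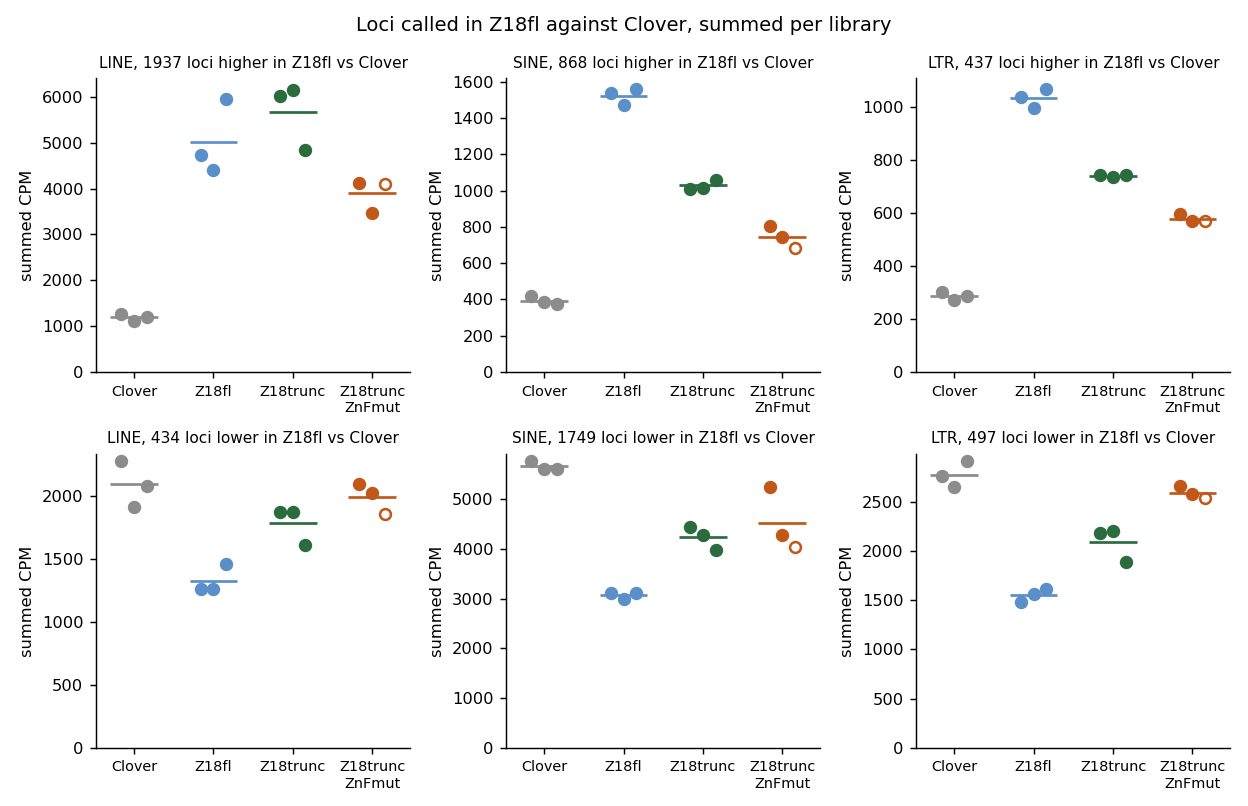
The upper panels plot the summed CPM of LINE, SINE and LTR loci that were higher in Z18fl than in Clover, and the lower panels those that were lower, for each construct. Points are single libraries, the open circle is Z18truncZnFmut replicate 3 and lines are means of 3. In the upper panels all Z18truncZnFmut points lie between the Clover and the Z18trunc points. The Clover libraries were used to choose the loci, so their place is set in part by that choice.

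In the test of single loci, 24 of 16985 loci (0.141%) were called higher in Z18truncZnFmut and 16 (0.0942%) lower with all 6 libraries. Without replicate 3, 25 of 22250 (0.112%) were higher and 24 (0.108%) lower. With the replicate block 20 were higher (0.118%) and 5 lower (0.0294%) with all 6, and 74 higher (0.333%) and 86 lower (0.387%) without replicate 3. The 5 were the 4 lower loci described further on and an AluSx1 element on chromosome 7. Of the loci higher in Z18fl that were tested, 9 of 3193 were called lower in the mutant and 2 higher, the latter being a U1 copy and an L1PA8A element. An unadjusted p under 0.05 was reached by 719 of them as lower (22.5%) and 24 as higher (0.752%), against 7.49% and 6.95% of all loci. Of the loci lower in Z18fl, 14 of 2761 were called higher and 0 lower, and 569 (20.6%) against 15 (0.543%) passed the unadjusted threshold. Without replicate 3 the shares were 23.1% lower and 0.864% higher in the first list and 0.495% lower and 21.7% higher in the second, against 7.12% and 6.46% of all loci. The median log2 fold change was -0.35 in the first list and 0.30 in the second with all 6 libraries, and -0.52 and 0.13 with aligned fragments as library sizes, where the median of all loci was -0.15.

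LINE loci lay lower and SINE and LTR loci slightly higher, relative to all loci. The median log2 fold change with all 6 libraries was -0.16 over 6247 LINE loci, 0.10 over 7312 SINE loci and 0.15 over 2286 LTR loci. It was -0.25, 0.14 and 0.17 without replicate 3. The SINE and LTR medians turned to -0.067 and -0.019 with aligned fragments and all 6 libraries, so for those classes only the place relative to other loci held. LINE loci in introns stood at -0.30 with all 6 libraries and -0.38 without replicate 3, whereas those in exons stood at 0.093 and 0.083. The exonic LINE medians turned to -0.078 and -0.088 with aligned fragments.

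LINE loci lay lower at elements richer in A and T. When LINE loci were divided by AT content into 4 bins of equal size, the median log2 fold change without replicate 3 was -0.063 in the bin up to 57.4% AT, -0.15 and -0.38 in the next bins and -0.44 in the bin from 63.4% AT upward. With all 6 libraries it was -0.071, -0.015, -0.26 and -0.29. SINE and LTR loci had medians above 0 in every bin in both comparisons under TMM scaling, between 0.059 and 0.23. With aligned fragments as library sizes those medians lay between -0.11 and 0.061, and the LINE medians between -0.20 and -0.61. Bins by uridine content showed no steady fall for LINE loci, at -0.11, -0.31, -0.40 and -0.17 without replicate 3. With all 6 libraries they stood at -0.021, -0.21, -0.27 and -0.11. The mean count of the LINE loci in Z18trunc also differed between the AT bins, from 25.2 to 57.8 without replicate 3, and its part in the result was not tested. The class also holds L2 loci and CR1 and RTE loci, with medians of 0.13 and 0.10 without replicate 3. The part of families and gene context was not tested. These values describe loci that share libraries and are given without a p-value.

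**Figure D4:**
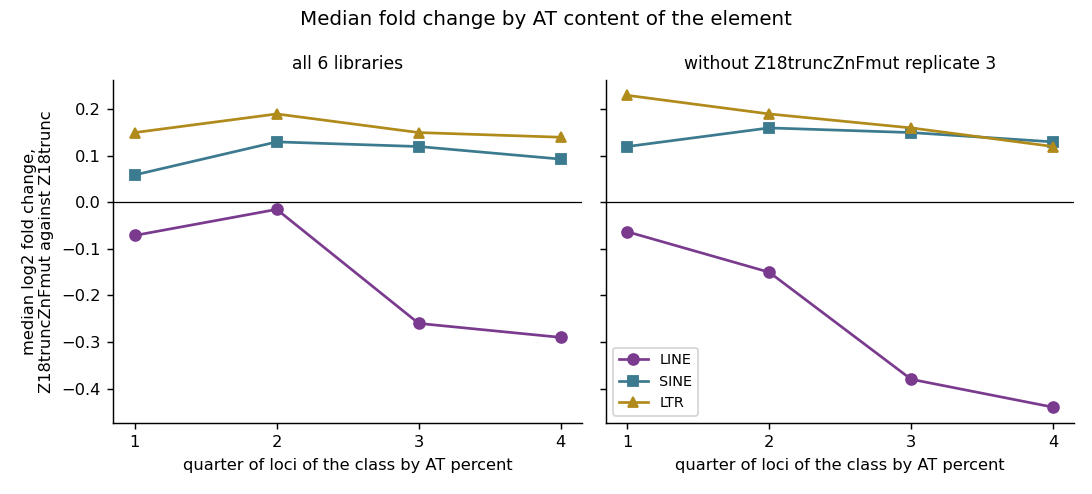
The median log2 fold change of Z18truncZnFmut against Z18trunc is plotted for 4 equal bins of LINE, SINE and LTR loci ordered by AT percent, with all 6 libraries on the left and without Z18truncZnFmut replicate 3 on the right. LINE medians lie between -0.015 and -0.29 on the left and between -0.063 and -0.44 on the right, lower in bins 3 and 4 than in bins 1 and 2, and SINE and LTR medians lie above 0, which they do under TMM scaling but not in every bin with aligned fragments.

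Single called loci show the sizes involved. The 9 loci given here were chosen after their values were seen: called with and without mutant replicate 3, no overlap between groups, with all 6 libraries 50 or more mean counts in the higher group, and there a score averaging 50 or more. The score is the percent of reads aligning to an element that was assigned to it. The AluY element on chromosome 3, between genes, had 100, 112 and 123 counts in Z18trunc and 35, 20 and 12 counts in Z18truncZnFmut (log2 fold change -2.12 ± 0.27, edgeR adjusted p = 0.0027). Its levels were 7.89 to 10.6 CPM in Z18fl and 0.409 to 1.02 CPM in Clover, and the mutant libraries, at 0.496 to 1.45 CPM, overlapped the Clover range. The AluSq element in an intron of PRMT5-DT had 205, 167 and 158 counts in Z18trunc and 57, 62 and 72 counts in Z18truncZnFmut (-1.24 ± 0.20, edgeR adjusted p = 0.013). The AluSg4 element on chromosome 12 had 163, 170 and 201 counts against 68, 68 and 73 counts (-1.13 ± 0.20, edgeR adjusted p = 0.026). The L1PBa element at chr5:85508886-85513889, between genes, had 273, 271 and 200 counts against 120, 76 and 97 counts (-1.13 ± 0.18, edgeR adjusted p = 0.013). Of these 4 only AluY kept its call with each library left out: AluSg4 and AluSq lost it without any single Z18trunc library (edgeR adjusted p = 0.059 to 0.15) and L1PBa without Z18trunc replicate 1 or 2 (0.14 and 0.099). All 4 of the lower loci were lower in replicate 3 of the mutant as in the other mutant libraries. AluSg4 and L1PBa stayed above Clover, which had 1.5 to 1.70 and 0.849 to 1.08 CPM, and AluSq fell below it, at 4.38 to 6.62 CPM.

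The other 5 were higher in the mutant. The L1PA4 element at chr22:34397944-34398715, between genes, had 12, 16 and 12 counts in Z18trunc and 49, 49 and 101 counts in Z18truncZnFmut (2.53 ± 0.33, edgeR adjusted p = 0.0027). An L1PA6 element at chrX:80766638-80771565, antisense to BRWD3, had 36, 48 and 24 counts against 120, 63 and 130 counts (1.74 ± 0.25, edgeR adjusted p = 0.0056). The AluJb element on chromosome 17 had 26, 31 and 28 counts against 72, 53 and 51 counts (1.26 ± 0.24, edgeR adjusted p = 0.039). The mutant overlapped Clover at L1PA4, at 2.03 to 4.17 against 2.04 to 2.94 CPM, and at AluJb, at 2.11 to 2.98 against 1.74 to 2.89 CPM. At the element near BRWD3 it lay above Clover, at 2.96 to 5.37 against 1.68 to 2.16 CPM. In these 3 higher loci the Z18fl level lay below Clover in every library. The remaining 2 were an L1PA6 element at chr7:19045740-19051889, antisense to TWIST1 (1.26 ± 0.23), and an L1PA8A element at chr9:12741293-12744518 in an intron of LURAP1L-AS1 (1.23 ± 0.23). The element near TWIST1 had 2.60 to 3.31 CPM in the mutant and 1.52 to 2.58 CPM in Clover, and there too Z18fl lay below Clover. L1PA8A had 4.23 to 5.30 CPM in the mutant and 1.17 to 1.58 CPM in Clover, with Z18fl above Clover. The AluJb element and these 2 were no longer called without any single Z18trunc library (edgeR adjusted p = 0.053 to 0.19), with aligned fragments (0.057 to 0.059) or without the filter (0.46). With the replicate block AluJb and the element near TWIST1 were not called either (0.080 and 0.054), and AluJb was not called without mutant replicate 2 (0.070). A HERVH-int element at chr4:87922255-87925282, whose mean score of 48.3 kept it out of the 9, had 55, 67 and 49 counts against 113, 100 and 115 counts.

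**Figure D5:**
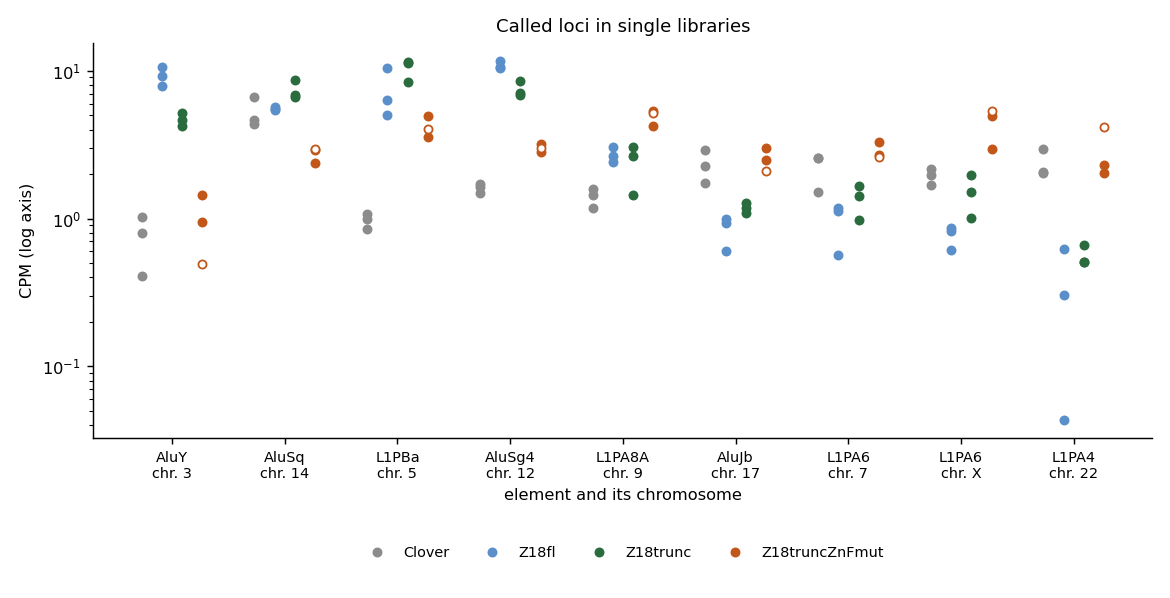
The 9 loci are plotted by name and chromosome, with the CPM of every library of the 4 constructs on a log axis, and open circles for Z18truncZnFmut replicate 3. The 4 loci on the left are lower and the 5 on the right higher in all 3 Z18truncZnFmut libraries than in all 3 Z18trunc libraries.

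By class, the 24 higher calls with all 6 libraries were 11 LINE, 4 SINE, 4 LTR and 5 small RNA loci. The SINE loci included the AluJb element, an AluSc on chromosome 3 and an AluSz on an unplaced contig, and the LTR loci were MER50 on chromosome 12, THE1B-int on chromosome 3, HERVH-int on chromosome 4 and HERV9-int on chromosome 8. At the same time the 16 lower calls were 7 LINE, 8 SINE, 0 LTR and 1 small RNA locus, a U1 copy. Of the 16985 loci tested, 6247 were LINE, 7312 SINE, 2286 LTR, 27 rRNA and 39 snRNA loci. The calls are few, and their split by class was not tested. Among the called loci, 18 higher and 8 lower ones were also called without replicate 3. The called small RNA loci were single copies of U1 and of ribosomal RNA with mean scores of 6.73 to 19.8, so reads could be divided among near-identical copies in more than 1 way. A U1 copy at RNVU1-18, for example, had 274, 167 and 122 counts in Z18trunc and 40, 9543 and 3420 counts in Z18truncZnFmut.

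On the opposite strand 0 of 976 names (0%) were called with all 6 libraries by edgeR and by DESeq2, with 14 higher and 15 lower at an unadjusted p under 0.05, and edgeR called 1 of 982 (0.102%) without replicate 3. It was tRNA-Ser-TCA(m), with 16, 24 and 16 counts in Z18trunc and 46, 73 and 45 counts in Z18truncZnFmut (log2 fold change 1.89 ± 0.32, edgeR adjusted p = 0.018). The blocked fit called 0 names with all 6 libraries and, without replicate 3, 4 names higher (0.407%), which were that tRNA, MamGypLTR1b, FordPrefect and MER89, and 2 lower (0.204%), the lower ones being MER4D1 and MER11B. The retroviral loci that the study followed did not separate the groups at this depth. MER4-int on chromosome 14, summed over 10 elements at chr14:105032273-105039940, had 10, 8 and 10 counts in Z18trunc and 7, 9 and 14 counts in Z18truncZnFmut (two-sided exact permutation p = 0.7, and 0.8 without replicate 3). HERVK3-int at chr16:35517050-35524053 had 10, 11 and 9 counts against 13, 2 and 17 counts (two-sided exact permutation p = 1.0, and 0.8 without replicate 3).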

How the data were processed

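Reads were trimmed by the authors, with cutadapt 4.6 named in the submitters' processing notes, and quantified with SQuIRE on hg38, 1 file per library without pooling. The version of SQuIRE was not given in the sources used here. The deposited totals are expected counts per annotated element and strand, in which SQuIRE adds to uniquely mapping reads a share of each read that maps to several places. The deposited unique counts and aligned fragments are whole-number counts made by the authors. The deposited score is the percent of reads aligning to an element that was assigned to it. The authors' FPKM values were not used. The authors had tested each construct against Clover with DESeq2, and no result of theirs was used.

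Sense-strand expected counts were rounded, and elements of 6 transposable element classes and 6 small RNA classes were kept. Loci, and sums over names (subfamilies of elements and small RNAs), families and the opposite strand, entered edgeR 4.0.16 in R 4.3.3, where filterByExpr (minimum count 10, minimum total 15), TMM and then the quasi-likelihood test were run on the compared libraries alone. A feature was called at a Benjamini-Hochberg adjusted p under 0.05. Single values per library were compared with two-sided exact permutation tests. Expected counts of single elements ranged widely, and the precision of each is limited by its own counts, which are printed beside it. Scripts were tested on simulated data. Gene context came from GENCODE release 44, with an element called exonic when at least 50% of its length lay in exons on its strand. All else was run in Python 3.11.15 with pandas 2.3.3, numpy 2.4.6, pysam 0.24.0 and scipy 1.17.1.

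The members and lists were chosen with earlier results of these data known. No called locus met the rule for loci to be named, which asked for a mean score of at least 90, so the 9 loci described were chosen after their values were seen. A further such locus and the sequences of the Alu elements are not reported here. Names and families to be described were the 5 with the smallest p in each direction among those with mean counts of 200 or more in the higher group, and every small RNA name with as many in either group. Their values that are not given singly are counted under the alternatives.

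Replicate numbers were tried as a pairing, though no label states that they mark a shared batch. Deviations from the group means correlated between libraries of the same number with r = 0.69, 0.39 and 0.70 for numbers 1 to 3, over 453 names, all above the limit of 0.1. Unlike numbers correlated as well, mutant replicate 1 with Z18trunc replicate 2 at 0.44 and mutant replicate 2 with Z18trunc replicate 1 at 0.29, and those with number 3 on 1 side at -0.74 to -0.44. Since 0.44 exceeds the 0.39 of number 2, the check does not show that numbers 1 and 2 each form a pair. Alternatives were DESeq2 1.42.0, aligned fragments as library sizes, all 12 libraries in a single fit, transposable elements only, no filter, either strand, unique reads, thinned libraries, an unadjusted p, the replicate block, and each library left out in turn. Summed levels of the loci called in Z18fl against Clover, and their blocked fit, were added after the data were seen.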

Additional observations from a re-analysis of the deposited data

Results flagged for a closer look

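Of the elements whose class carries a question mark in the annotation, and which entered no test, LTR? and RC? elements gave signal above Clover in Z18trunc. DNA? and SINE? elements did not in either construct. On the strand of the element, LTR? elements had a mean of 20.7 CPM in Z18trunc and RC? elements one of 1.65 CPM, each with every library above every Clover library. On the opposite strand the means were 16.9 CPM for LTR? and 0.516 CPM for RC? elements in Z18trunc. The RC? elements there had 12, 14 and 11 counts in Z18trunc and 6, 2 and 3 counts in Clover, which is near the floor. RC? elements on the opposite strand also lay above Clover in every library of Z18truncZnFmut, with a mean of 1.54 CPM. The LINE, SINE, LTR and DNA classes likewise lay above every Clover library in Z18trunc, so this is not particular to LTR? and RC? elements.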

How the results depend on the processing

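Counts of calls moved most, and the values here follow the order higher, then lower. For loci with all 6 libraries they were 85 and 62 with DESeq2, 62 and 59 with transposable elements alone, 42 and 25 with all 12 libraries in a single fit, 43 and 32 on either strand, 55 and 77 without the filter, 83 and 63 with uniquely mapping reads, and 1180 and 1273 at an unadjusted p under 0.05. With aligned fragments 77 were lower. For loci without mutant replicate 3 they were 73 and 42 with DESeq2, 39 and 53 on either strand, 110 and 85 with uniquely mapping reads, and 1437 and 1585 unadjusted, and 9 were higher with aligned fragments. The replicate block left 5 lower loci with all 6 libraries and gave 74 and 86 loci, 29 and 65 names and 4 and 2 names on the opposite strand without replicate 3. It gave 4 higher families there, and among the values described singly it changed no call beyond those given beside the results. For names without replicate 3 the counts were 10 and 12 with DESeq2 and 64 and 51 unadjusted. There 2 names were higher on either strand and 3 with uniquely mapping reads, and 48 were lower with aligned fragments. With all 6 libraries 16 and 37 names passed unadjusted. For families, 1 was higher unadjusted and 1 lower with DESeq2 with all 6. Without replicate 3, 0 were higher and 0 lower with aligned fragments, 1 was higher on either strand, 2 were lower with DESeq2, 0 lower with uniquely mapping reads, and 5 and 2 passed unadjusted. On the opposite strand 14 and 15 names passed unadjusted with all 6, and 30 and 30 without replicate 3, where 0 were higher with aligned fragments and 0 with uniquely mapping reads.

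Leaving out each library in turn gave 5 to 114 higher and 2 to 29 lower loci with all 6 libraries, the ends being Z18trunc replicate 2 and mutant replicate 1 in both directions, with 2 lower also without Z18trunc replicate 1. Starting without mutant replicate 3 it gave 0 to 279 higher loci, the ends again being Z18trunc replicate 2 and mutant replicate 1, and 2 to 239 lower loci, the upper end without mutant replicate 2. When mutant replicate 1 or 2 is left out there, the lone mutant sample is assumed to vary like the other group. Names gave 0 to 6 higher with all 6, the 6 without mutant replicate 3, and 2 to 18 higher and 0 to 53 lower without it, the upper ends lacking Z18trunc replicate 3. Families gave 0 to 2 higher and 0 to 1 lower in both comparisons, with 0 higher without Z18trunc replicate 1 or 2. On the opposite strand there were 0 to 1 higher with all 6, and 0 to 2 higher and 0 to 1 lower without mutant replicate 3. Of the names and families called without mutant replicate 3, U1 and U17 were called under every alternative run except that U1 reversed with uniquely mapping reads.

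Without replicate 3 the LINE difference was -5244 CPM on either strand and -3294 CPM with uniquely mapping reads. The snRNA difference with uniquely mapping reads, which are only a part of the counts, was 63.6 CPM, and 68.9 CPM without replicate 3. The median over loci higher in Z18fl, with the list called anew under each alternative, was -0.46 and, without replicate 3, -0.48 with aligned fragments, and ran from -0.37 to -0.28 and from -0.43 to -0.35 when a library was left out. Over loci lower in Z18fl it was 0.33 and 0.37 with DESeq2 and 0.17 and 0.21 with aligned fragments, and ran from 0.31 to 0.34 and from 0.32 to 0.36. On the log2 scale with all 6 libraries, these values changed sign. Uniquely mapping reads gave -0.62 for U1, -0.37 for SSU-rRNA_Hsa, -0.31 for U2 and -0.99 for U3, the replicate block gave -0.045 for U2 and -0.11 for U3, and either strand gave -0.021 for MLT2B4. Aligned fragments gave 0.16 for TcMar-Tigger, 0.13 for TcMar-Mariner, 0.090 for L1 and 0.15 for PiggyBac. With a library left out, 7SL ran from -0.049 to 1.13, BC200 from -0.058 to 0.45, U2 from -0.32 to 0.45, U3 from -0.17 to 0.67 and the srpRNA family from -0.060 to 1.06. Without replicate 3, uniquely mapping reads gave -0.30 for U1, -0.46 for U3 and -0.23 for SSU-rRNA_Hsa. The cause was not tested. Of the values for loci described singly, 170 kept their side of the threshold and 53 lost the call, and for names and families 575 kept it, 48 gained and 34 lost a call and 21 reversed. Loci with few counts limit what a single element can show.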
